A study of Mus musculus with 2 samples.

Results

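The miR-200 family is a set of 5 microRNA genes, Mir200b, Mir200a, Mir429, Mir200c and Mir141, measured here in the intestine of mouse embryos. Its members were chosen by gene name: the identifiers in the count tables were matched to the GRCm38 annotation, and all 5 were found among 1973 gene rows. Each of the 5 passed the minimum of 10 counts in both libraries, as did 363 genes in all. The series holds a single group: 14.5 day embryos of strain B6NCrl, with 2 small RNA libraries given as biological replicates 1 and 2. Both carry one donor identifier in the labels. The labels name no treatment, mutation or second tissue. The labels speak of one intestine from one pup per library and also of pooled male and female tissue, and which of these holds could not be settled from the values. Replicate 2 was collected on the 15th and replicate 1 on the 17th of one month, so collection day and replicate cannot be told apart.

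MicroRNAs, which are processed from hairpin-shaped transcripts, find the messenger RNAs they repress mainly through the seed, bases 2 to 8 from the 5′ end. The miR-200 family is known from epithelia. It represses Zeb1 and Zeb2, transcription factors that shut off E-cadherin and other epithelial genes, and Zeb1 and Zeb2 in turn repress the miR-200 genes. The family is therefore a common marker of the epithelial state, and in the gut it is known from the lining epithelium rather than from muscle or connective tissue.

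The 3p strands, the arms of these hairpins known as the main products in mammals, are shown because their seeds define the groups compared below. Capitals mark the seed.
miR-200b-3p: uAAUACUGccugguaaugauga
miR-429-3p: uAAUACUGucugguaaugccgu
miR-200c-3p: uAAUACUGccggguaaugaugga
miR-200a-3p: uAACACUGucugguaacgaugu
miR-141-3p: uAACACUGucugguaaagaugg

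These sequences, from RefSeq on GRCm38.p6, fall into 2 seed groups that differ at a single base. With positions counted from 1 at the 5′ end, the change from miR-200b-3p to miR-200a-3p within the seed is U4C. Mir200b, Mir429 and Mir200c carry AAUACUG, and Mir200a and Mir141 carry AACACUG. Among the 1738 mouse mature microRNAs with a sequence in the same table, no others had either seed on this definition. The closest pairs lay across loci rather than within them. From miR-200b-3p to miR-200c-3p only U11G and A22G differed over the first 22 bases, and from miR-200a-3p to miR-141-3p only C17A and U22G. The pairs of one locus differed at 4 of 22 bases each. The longest stretch that any member's 3p strand shared with another annotated mouse hairpin was 16 bases, between Mir200a and Mir141, and outside the family it was 10 bases.

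The 2 loci lie on different chromosomes, and both are transcribed from the minus strand. On chromosome 4 the order in the direction of transcription is Mir200b (ENSMUSG00000065549.2; GRCm38 chr4:156055681-156055750), Mir200a (ENSMUSG00000065400.1; chr4:156054896-156054985) and Mir429 (ENSMUSG00000065427.1; chr4:156053905-156053987). Gaps of 695 and 908 bases separate them. Mir200b and Mir200a fall in the intron of the noncoding transcript Gm13648, and Mir429 falls in an exon of it. All 3 also fall in introns of the longer annotated forms of Ttll10. On chromosome 6, Mir200c (ENSMUSG00000065462.2; chr6:124718322-124718390) precedes Mir141 (ENSMUSG00000065474.1; chr6:124717914-124717985) by 336 bases, and both lie in introns of the noncoding transcript Gm15884, between the protein-coding genes Ptpn6 and Phb2. Mir141 also overlaps an exon of the unclassified gene Gm29008. The files use version 2 of the Mir200b and Mir200c identifiers and the annotation used here a later one, so their intervals may differ from those used for counting.

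The hairpins are shown because the counts are per hairpin and do not separate its arms. Capitals mark the 5p strand, which comes first, and the 3p strand.
Mir200b: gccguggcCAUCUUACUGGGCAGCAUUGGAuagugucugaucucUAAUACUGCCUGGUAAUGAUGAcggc
Mir200a: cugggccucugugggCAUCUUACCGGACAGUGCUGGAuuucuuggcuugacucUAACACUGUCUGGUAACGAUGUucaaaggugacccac
Mir429: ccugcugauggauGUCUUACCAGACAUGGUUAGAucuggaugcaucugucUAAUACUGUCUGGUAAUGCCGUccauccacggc
Mir200c: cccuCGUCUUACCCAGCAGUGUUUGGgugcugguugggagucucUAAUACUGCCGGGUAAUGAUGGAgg
Mir141: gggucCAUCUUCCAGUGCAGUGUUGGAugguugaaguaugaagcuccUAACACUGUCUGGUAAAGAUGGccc

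The hairpins were 69 to 90 bases long. Their 5p strands are less alike in the seed than the 3p strands: miR-200a-5p and miR-200b-5p share AUCUUAC, while miR-141-5p has AUCUUCC, miR-200c-5p GUCUUAC and miR-429-5p UCUUACC. Grouping by seed below goes by the 3p strand, and any reads from the 5p strand are counted in the same group as their hairpin.

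**Figure D1:**
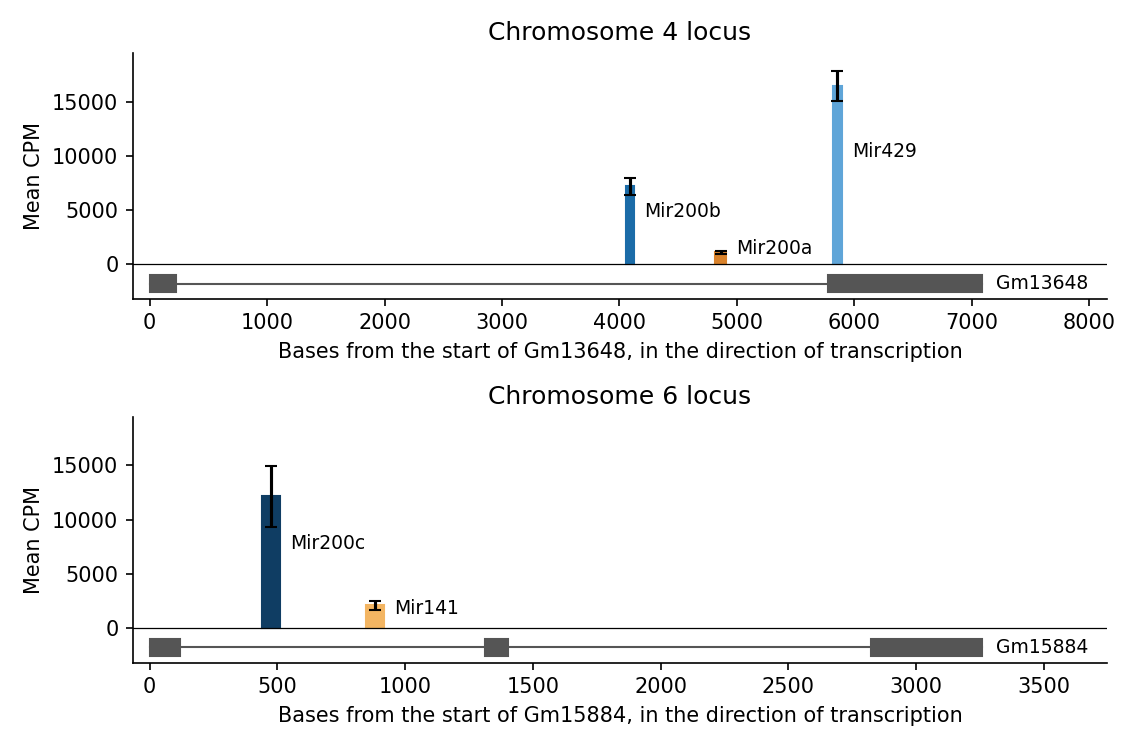
Maps of the chromosome 4 and chromosome 6 loci, with bases from the start of the noncoding transcript on the x axis and mean CPM of the 2 libraries on the y axis. Coloured bars stand at the hairpins, error bars are the SD (n = 2), and grey boxes below are exons of Gm13648 and Gm15884. Levels did not follow the order along the chromosome 4 locus, where Mir200a lies between Mir200b and Mir429 and was the lowest of the 3.

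The start of Gm13648 lies 4051 bases before Mir200b. The 300 bases around it are shown because the chromosome 4 genes lie within this transcript and because its letters can be searched for the E-box type that Zeb1 and Zeb2 are known to bind (CACCTG, or CAGGTG on the other strand). Capitals mark the matches in the window (GRCm38.p6, chr4:156059753-156060052, minus strand, 250 bases before the start to 50 after it).
Gm13648: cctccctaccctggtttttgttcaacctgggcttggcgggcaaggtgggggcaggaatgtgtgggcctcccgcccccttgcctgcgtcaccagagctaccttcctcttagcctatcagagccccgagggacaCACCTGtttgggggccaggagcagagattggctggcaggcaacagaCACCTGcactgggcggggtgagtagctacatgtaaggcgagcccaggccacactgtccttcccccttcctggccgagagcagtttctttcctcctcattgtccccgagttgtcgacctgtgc

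The window held 2 matches, beginning 118 and 72 bases before the start, which do not overlap each other. Of 32851 such mouse windows 20.2% held at least 1 match on either strand and 2.88% at least 2. The matches are letters in the reference, and binding was not measured in these libraries. No such window was available for Gm15884, so the chromosome 6 locus was not searched and the loci cannot be compared in this respect.

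Counts on the gene's strand were scaled to 1000000 such counts per library (CPM). The totals were 3903472 counts in replicate 2 and 15090126 in replicate 1. Reads aligned to several places were left out of the counts. Genes with near-identical copies can lose reads this way, so shares and ranks compare only the reads that were kept. Taking 3 counts as the limit, a count of 0 allows a level of 0.769 CPM for replicate 2 and of 0.199 CPM for replicate 1 at most, far below every member. Intervals given below are 95% intervals that cover counting error only. Each small RNA read spans its whole product, so levels were not divided by gene length. Ligation and PCR favour some small RNAs over others, so levels of different members compare counts and not molecules.

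The family was abundant in this tissue and uneven within itself. The 5 genes summed to 4.29% of the counts in replicate 2 (Wilson interval 4.27 to 4.31%) and 3.50% in replicate 1 (3.49 to 3.51%). The mean was 3.90 ± 0.556% (SD, n = 2). In bulk tissue, more cells of a type and more RNA per cell cannot be told apart.

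Mir429, the last hairpin of the chromosome 4 locus, led the family with 17419 CPM in replicate 2 and 15441 CPM in replicate 1. It stood 16th of all gene rows by mean level, between Mir99b (16976 ± 55.3 CPM) and Mir322 (16019 ± 436 CPM). Mir200c, the first hairpin of the chromosome 6 locus, reached 14105 CPM in replicate 2, against 10177 CPM in replicate 1. It stood 19th, between Mir20a (12149 ± 157 CPM) and Mir23a (11066 ± 609 CPM), and had the widest spread of the 5 genes.

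Mir200b, the first hairpin of the chromosome 4 locus, reached 7767 CPM in replicate 2, against 6657 CPM in replicate 1, at rank 29. Its neighbours in the order were Mirlet7d (8161 ± 659 CPM) and Mir30a (7191 ± 488 CPM). The 3 genes of the AAUACUG seed group thus all stood at rank 29 or above by mean level.

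The AACACUG group was lower throughout. Mir141 reached 2392 CPM in replicate 2, against 1781 CPM in replicate 1, at rank 74 between Mir484 (2089 ± 59.0 CPM) and Mir483 (2063 ± 105 CPM). Mir200a had 1209 CPM in replicate 2 (interval 1175 to 1244) and 972 CPM in replicate 1 (956 to 987), at rank 97. Its neighbours were Mir148a (1112 ± 250 CPM) and Mir181b-2 (1077 ± 17.7 CPM).

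The order Mir429, Mir200c, Mir200b, Mir141, Mir200a was the same in both libraries, and no 2 genes next to each other in it overlapped between libraries. By fold, the narrowest step was from Mir429 to Mir200c, 1.23-fold in replicate 2 and 1.52-fold in replicate 1, and its gap between means of 4289 CPM was barely above the sum of both SDs, 4176 CPM. The widest by fold was from Mir200b to Mir141, 3.25-fold in replicate 2 and 3.74-fold in replicate 1. This step separates the seed groups and crosses the loci. These are values without a test.

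**Figure D2:**
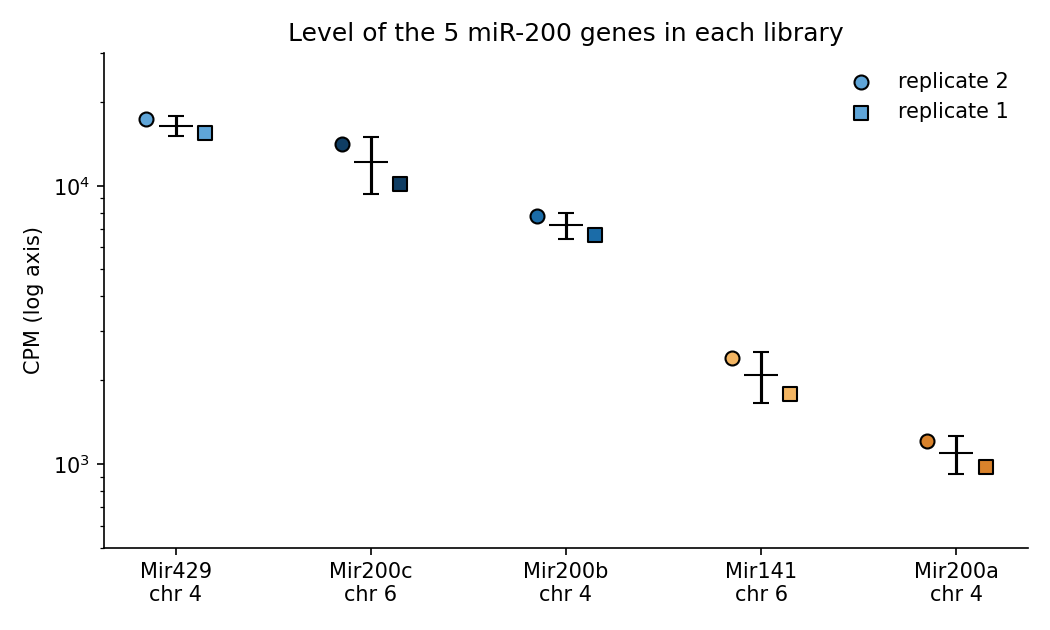
CPM on a log axis for each of the 5 genes, ordered by mean level. Circles are replicate 2, squares replicate 1, and the bar with whiskers is the mean ± SD (n = 2); the 3 genes with the AAUACUG seed all lie above the 2 with AACACUG.

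**Figure D3:**
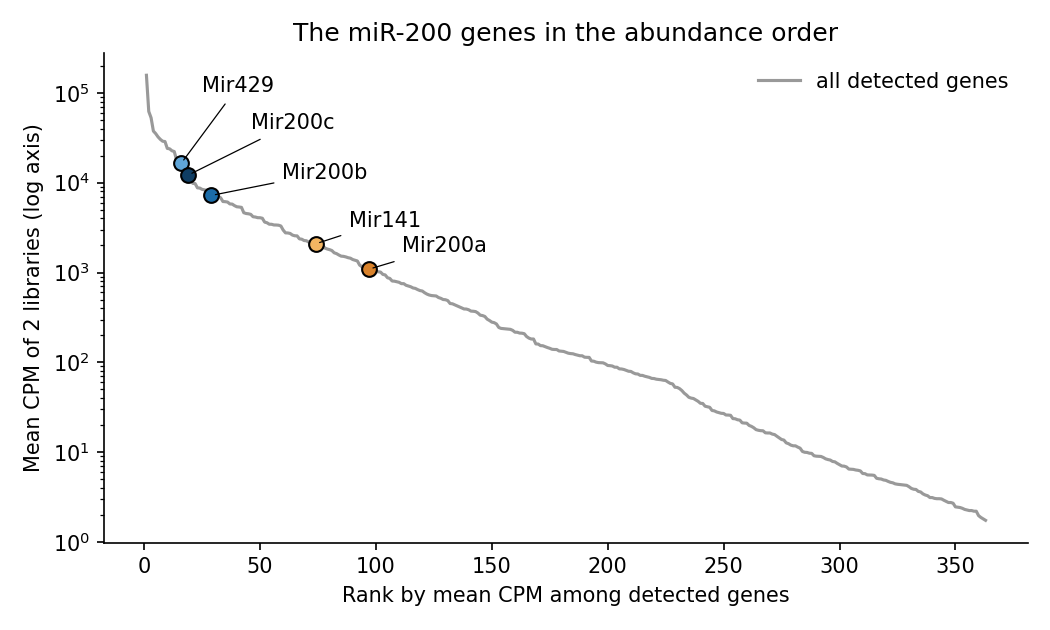
Mean CPM of the 2 libraries on a log axis against rank for the 363 detected genes (grey line), with the 5 miR-200 genes as coloured points. They stand at ranks 16, 19, 29, 74 and 97.

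Counts on the opposite strand were nearly absent at the 5 genes. Mir200a and Mir141 had 1 such count each in replicate 1, against 14661 and 26880 on the gene's strand. In replicate 2 the opposite strand held none at any member, with 4718 counts or more on the gene's strand of each.

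Comparison of the loci showed more counts from chromosome 4 than from chromosome 6 in both libraries. The chromosome 4 genes held 2.64% of all counts in replicate 2 and 2.31% in replicate 1. The chromosome 6 genes held 1.65% in replicate 2 and 1.20% in replicate 1. The chromosome 4 sum was 1.60-fold the chromosome 6 sum in replicate 2 (exact counting interval 1.58 to 1.62) and 1.93-fold in replicate 1 (1.92 to 1.94). The log2 ratio averaged 0.81 ± 0.19 (SD, n = 2), with a gap of 0.27 between the libraries, so its direction was shared and its size was not. Chromosome 6 supplied 38.5% of the family's counts in replicate 2 and 34.1% in replicate 1.

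The seed groups stood much further apart than the loci. Genes with AAUACUG held 91.6% of the family's counts in replicate 2 and 92.1% in replicate 1. The rest, 8.40% in replicate 2 and 7.86% in replicate 1, came from Mir200a and Mir141. The AAUACUG sum was 10.9-fold the AACACUG sum in replicate 2 (interval 10.7 to 11.1) and 11.7-fold in replicate 1 (11.6 to 11.8). The log2 ratio averaged 3.50 ± 0.07 (SD, n = 2), and its gap of 0.10 between the libraries was small beside it.

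Each locus carries both seeds, and the imbalance between them was larger on chromosome 4. There Mir200b and Mir429 together were 20.8-fold Mir200a in replicate 2 (interval 20.2 to 21.5) and 22.7-fold in replicate 1 (22.4 to 23.1). On chromosome 6 Mir200c was 5.90-fold Mir141 in replicate 2 (5.77 to 6.03) and 5.71-fold in replicate 1 (5.64 to 5.79). The chromosome 4 ratio exceeded that of chromosome 6 by 3.53-fold in replicate 2 (3.41 to 3.67) and by 3.98-fold in replicate 1 (3.90 to 4.07). Chromosome 4 has 2 genes with the AAUACUG seed and chromosome 6 has 1. Taken gene against gene, Mir200b was 6.43-fold Mir200a in replicate 2 and 6.85-fold in replicate 1, near the ratio on chromosome 6, while Mir429 was 14.4-fold Mir200a in replicate 2 and 15.9-fold in replicate 1.

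**Figure D4:**
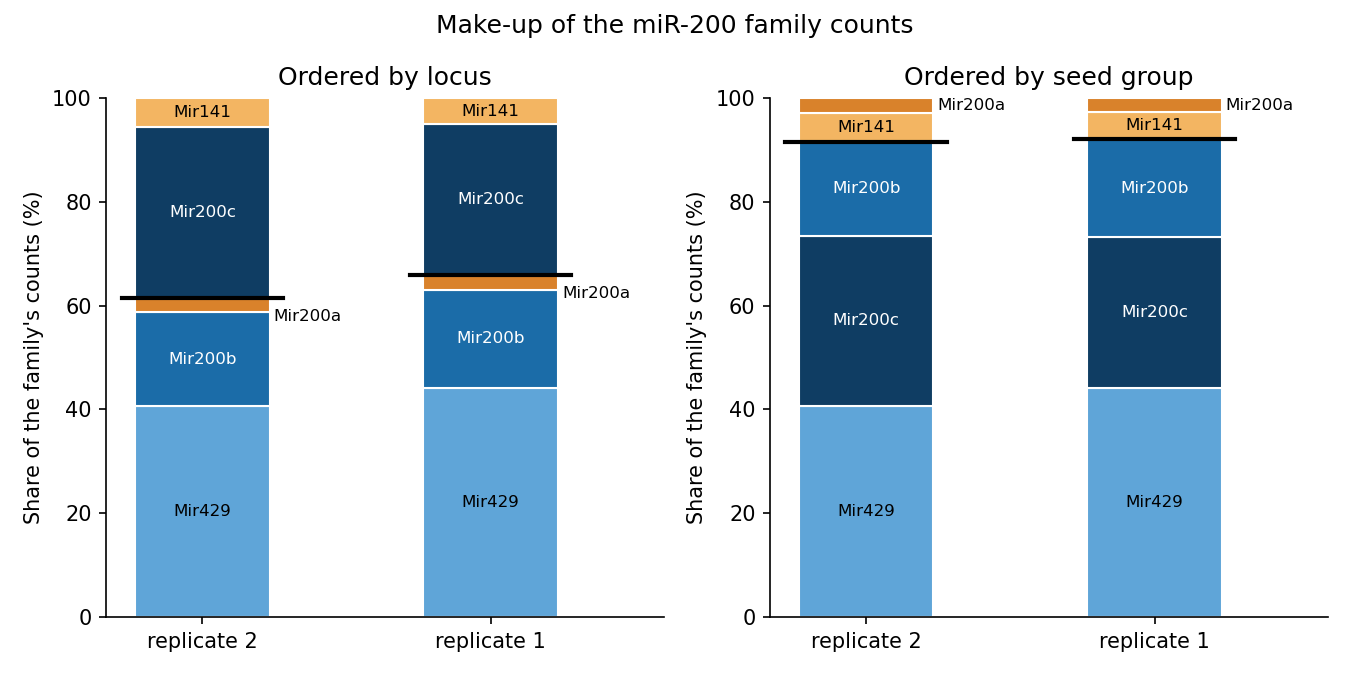
Share of the family's counts (%) from each gene, as stacked bars for replicate 2 and replicate 1. On the left the genes are stacked by locus and the black line marks the chromosome 4 share, 61.5% in replicate 2 and 65.9% in replicate 1; on the right they are stacked by seed and the line marks the AAUACUG share.

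All 5 genes were higher in replicate 2 than in replicate 1, and the chromosome 6 pair differed most. Mir200c was 1.39-fold higher (log2 0.47, interval 0.46 to 0.48) and Mir141 1.34-fold (log2 0.43, 0.39 to 0.46). On chromosome 4 Mir200a was 1.24-fold higher (log2 0.32, 0.27 to 0.36), Mir200b 1.17-fold (log2 0.22, 0.20 to 0.24) and Mir429 1.13-fold (log2 0.17, 0.16 to 0.19). The chromosome 6 sum differed by log2 0.46 and the chromosome 4 sum by 0.19.

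In a two-sided exact binomial test of each gene's counts against the library totals, adjusted over the 363 detected genes by the Benjamini-Hochberg method, 5 of 5 members passed at 0.05. Over all detected genes 43.8% passed, 29.8% as higher and 14% as lower in replicate 2. Passing depends on depth: among the 102 genes with a mean of at least 1000 CPM, a mean every member reached, 88.2% passed, 61.8% as higher and 26.5% as lower in replicate 2. The count of members that passed therefore says little by itself. The adjusted p by the exact binomial test was 1.55e-36 for Mir200a and 4.09e-163 for Mir429. The test compares the reads of these 2 libraries and no condition.

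The sizes of the differences place the members better than their p-values. The median over the 5 members was log2 0.32, against 0.06 over all detected genes and 0.07 over those of at least 1000 CPM. Across all detected genes 95% lay within an absolute log2 difference of 0.73, so every member was within that spread, which low-count genes widen. Of 97 other genes with at least 1000 CPM, 1 was further apart between the libraries than Mir200c in absolute log2 difference, namely Mir375, and 3 were further apart than Mir141. Mir200a was exceeded in absolute difference by 7 of them, Mir200b by 14 and Mir429 by 25. Of these, 5, 11 and 16 were higher in replicate 2, as the members were.

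**Figure D5:**
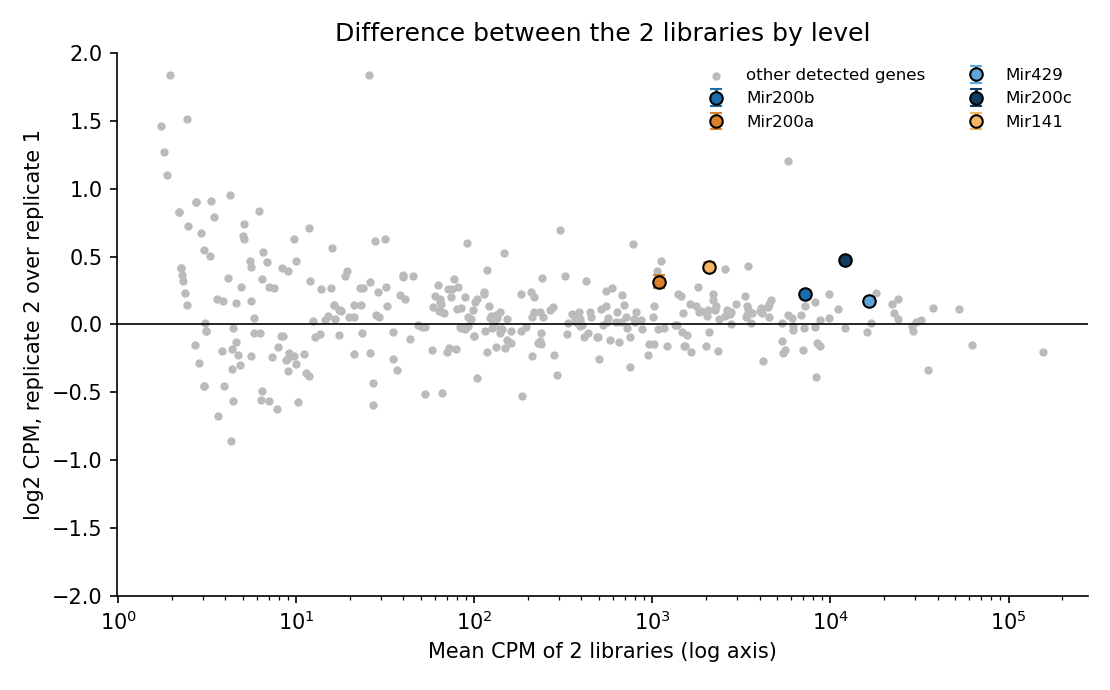
Log2 of CPM in replicate 2 over replicate 1 against mean CPM on a log axis, for the 5 miR-200 genes (coloured, with 95% counting intervals) and the other detected genes (grey). All 5 lie above 0, with Mir200c and Mir141 highest; 1 other gene, Mir802, lies above the upper limit of the y axis.

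Genes of one locus kept their proportions more closely than genes of different loci. Over the 4 pairs within a locus, the log2 ratio shifted between the libraries by 0.05 to 0.14, with a median of 0.07. Over the 6 pairs across loci it shifted by 0.11 to 0.30, with a median of 0.23. The steadiest pairs were Mir200c over Mir141 and Mir429 over Mir200b, each with a shift of 0.05. Among other detected genes the median shift was 0.16 for 348 pairs on one strand within 10 kb and 0.25 for all remaining pairs. Those pairs were not matched to the members' level and include low-count genes, whose counting error can widen both medians. The 10 pairs are built from 5 values per library and are not independent, so no test was made.

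Marker lists of other cell types also differed between the libraries, and their part in the family's difference was not tested. The family sum differed by log2 0.29 of replicate 2 over replicate 1, and by 0.22 with edgeR's TMM scaling. The background for the counts of list genes that passed is as above: 29.8% of detected genes, and 61.8% of those with at least 1000 CPM, passed as higher in replicate 2.

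Among the epithelial lists, the intestinal genes Mir192, Mir194-1, Mir194-2 and Mir215 came closest to the family. They summed to 1.14% in replicate 2 and 0.898% in replicate 1, a log2 difference of 0.34. Single genes ranged from 0.14 for Mir192 to 0.59 for Mir194-1. Of these genes 4 of 4 passed as higher, beside 29.8% of detected genes and 61.8% of those with at least 1000 CPM. Mir194-1, with a mean of 778 CPM, lay below that level. Reads that fit both Mir194-1 and Mir194-2 may be left out for aligning to several places. The family was 3.77-fold that list in replicate 2 and 3.90-fold in replicate 1. Genes known from stratified epithelium, Mir203, Mir205 and Mir31, gave 0.620% in replicate 2 and 0.558% in replicate 1, a log2 difference of 0.15, or 0.08 with TMM, and 3 of 3 passed as higher. The miR-183 cluster of sensory and epithelial cells gave 1.01% in replicate 2 and 0.945% in replicate 1. Its 3 genes passed as higher beside the same 61.8%, but their median log2 difference of 0.07 equalled that of all genes of at least 1000 CPM, and the cluster's sum differed by 0.02 with TMM. Across all lists, including those below, the leukocyte sum (log2 0.31) lay closer to the family sum than the intestinal sum did. The mesenchymal (0.21) and neural (0.18) sums lay closer to it than those of stratified epithelium (0.15) and the miR-183 cluster (0.09).

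Lists from other gut layers differed in both directions. The smooth muscle pair Mir143 and Mir145a gave 15.0% in replicate 2 and 17.2% in replicate 1, and Mir143 passed as lower. The mesenchymal list of Mir199a-1, Mir199a-2, Mir199b and Mir214 gave 1.12% in replicate 2 and 0.971% in replicate 1, nearly all from Mir214. The log2 difference of its sum, 0.21, exceeds those of stratified epithelium and the miR-183 cluster. The median over its genes was 0.09, against 0.22 for stratified epithelium and 0.07 for the miR-183 cluster. Mir214 (0.22) and Mir199a-1 (0.39) were higher in replicate 2, Mir199b (-0.09) and Mir199a-2 (-0.05) lower. Of the list's genes 1 passed in each direction. Endothelial Mir126a gave 2.42% in replicate 2 and 2.35% in replicate 1, a log2 difference of 0.04 that turned to -0.03 with TMM.

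By its sum, the list of foregut organs and endocrine cells differed most, with a log2 difference of 1.22. Its single genes ranged from 0.36 for Mir122 to 6.42 for Mir802. Mir375, known from endocrine cells, reached 8059 CPM in replicate 2, against 3497 CPM in replicate 1. Mir802, known from liver, pancreas and intestine, reached 137 CPM in replicate 2, against 1.59 CPM in replicate 1. With Mir122, Mir216a, Mir216b and Mir217 these genes summed to 0.826% in replicate 2 and 0.354% in replicate 1, nearly all from Mir375. Of those detected 5 of 5 passed as higher, Mir216b with only 12 counts in replicate 2 and 13 in replicate 1.

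Blood and neural lists had small shares, yet their differences were of the family's size or larger in some cases. Leukocyte genes, without Mir142, gave 0.0557% in replicate 2 and 0.0448% in replicate 1, a log2 difference of 0.31, with 2 of 3 passing as higher. The family was 77.0-fold this list in replicate 2 and 78.2-fold in replicate 1. Erythroid genes gave 0.0409% in replicate 2 and 0.0258% in replicate 1, a log2 difference of 0.66, with 1 of 3 passing as higher. Neural genes, without Mir9-1, gave 0.232% in replicate 2 and 0.205% in replicate 1, nearly all from Mir137. Of the 6 genes 4 were at 0 in replicate 2 and 3 in replicate 1, among them Mir124a-2, Mir124a-3 and Mir9-2. Reads aligned to several places were left out, so a count of 0 need not mean that a gene was silent.

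The genes of at least 1000 CPM whose difference lay closest to that of the family sum (log2 0.29) were Mirlet7f-2 (0.30), Mir139 (0.27), Mir21a (0.23), Mir96 (0.23) and Mir214 (0.22). Likeness here is the gap in a single log2 difference over 2 libraries. Mir214, a mesenchymal gene, stands in this set beside Mir96 of the miR-183 cluster.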

How the data were processed

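The authors deposited one table per library with whole-number counts of reads per gene on both strands, on the gene's strand and on the opposite strand. Per the files that accompany the tables, alignment was to mm10 and gene assignment to GENCODE release M4; the aligner, trimming and counter are not given in the sources used here. Inserts were under 30 bases, per the labels. Unaligned reads (13.8% of the table's reads in replicate 2 and 12.4% in replicate 1) and reads aligned to several places (26.6% in replicate 2 and 26.5% in replicate 1) stand in rows of their own and were left out of totals. Depth was 3.87 times greater in replicate 1, and no molecular identifiers are recorded.

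Symbols and positions came from GENCODE M21 (1894 of 1973 identifiers matched) and sequences from RefSeq tables on GRCm38.p6, which held the mature and hairpin sequences of all 5 members. CPM, Wilson and exact intervals and the exact binomial test used SciPy 1.17.1. The exact binomial test and the exact interval of a ratio were tried on simulated counts that held counting error only. Unchanged genes were tested there against a total corrected for the known simulated shift, so false calls against plain library totals were not checked. Scaling alternatives used edgeR 4.0.16 and DESeq2 1.42.0. A test between conditions was not possible with 1 group. The interval of the difference in seed ratio between loci is a normal approximation on the log scale. The members, marker lists and tests were chosen with earlier results of these data known, and the comparison with genes of at least 1000 CPM was added after the values were seen. Genes outside the family are named as members of a marker list, as neighbours of a member by mean CPM, or as the 5 closest in library difference; Mir802 was known to differ most. The labels call the replicates biological but give both one donor identifier, and SDs measure only the spread between these 2 libraries. The binomial p-values, like the intervals, take in counting error alone. Alternatives were another scaling, another count minimum, both strands, equal depth and each library alone.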

Additional observations from a re-analysis of the deposited data

How the results depend on the processing

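Each alternative changes one choice. The locus ratio and the seed ratio kept their direction with both strands counted, with replicate 1 thinned to the depth of replicate 2 and in each library alone. With 1 library left out, the family share ranged from 3.50% to 4.29%, the log2 locus ratio from 0.68 to 0.95 and the log2 seed ratio from 3.45 to 3.55. With Mir143, the most abundant gene, left out of the totals, the family share was 4.62%, because the total is smaller. All 5 members rose for the same reason. Mir200b, Mir200a and Mir429 had 8548, 1292 and 19478 CPM, and Mir200c and Mir141 had 14374 and 2471 CPM. All 5 members passed as higher in replicate 2 under every alternative that was run; their log2 differences were lowest with edgeR's TMM scaling, 0.40 for Mir200c, 0.36 for Mir141, 0.25 for Mir200a, 0.16 for Mir200b and 0.11 for Mir429. Scaling did move the split of all genes: 108 passed as higher and 51 as lower with library totals (67.9% of calls higher), 68 and 80 with TMM (45.9%), 72 and 77 with DESeq2 size factors (48.3%) and 87 and 68 without Mir143 (56.1%). The median difference of all detected genes was 0.06 with library totals and -0.01 with TMM. No paired analysis was possible because the series holds 1 group. With 2 libraries that share one donor identifier in the labels, spread between embryos is poorly known, and counting intervals do not cover it.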
